A study of Mus musculus with 2 samples.

Results

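The levels of 35 nucleolar ribosome assembly factor genes were described in common myeloid progenitors of the mouse, precursors in the marrow from which the granulocyte, monocyte, megakaryocyte and red cell lines arise. The members were the rows of both gene tables whose Ensembl identifier maps to the 35 listed symbols, out of 43346 Ensembl genes, and each of them was found. The cells were primary cells of adult male C57BL/6J mice aged 5 to 6 weeks, with no treatment given in the labels and a health state given as unknown. There was 1 group of 2 libraries, called biological replicates 1 and 2. Each was built with ScriptSeq from 100 ng of RNA after ribosomal RNA had been removed. Since both name the same donor, their spread may in part be technical and covers only these 2 samples. With 1 group there was no comparison of conditions and no p-value. Differences between the libraries are replicate 1 over replicate 2.

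The total of expected counts was 28158803 in replicate 1 and 84041054 in replicate 2, a 2.98-fold gap in depth. An expected count is an estimated number of reads that need not be whole. TPM, the level used below, is corrected for effective length and relative to all entries of a table, short structural RNAs included, and 20.1% of it in replicate 1 and 21.5% in replicate 2 belonged to the 21461 nuclear protein-coding genes. All 5 myeloid progenitor markers exceeded 5 TPM in both libraries, with Mpo at 357 ± 60.1, Cd34 at 123 ± 2.84 and Kit at 36.6 ± 4.47 TPM (mean ± SD, n = 2). Of the 4 B cell markers 3 had 0 counts in both libraries, as did 3 of the 4 T and NK cell markers. Median marker levels were 0.08 and 0.73 TPM for stem cells, 0.61 and 0.505 TPM for mature granulocytes, 1.11 and 1.24 TPM for maturing red cells, and 0 and 0.07 TPM for stromal and endothelial cells, given for replicate 1 first. The highest marker outside the progenitor list was Hemgn, of the red cell list, with 16.1 and 14.3 TPM, while the red cell genes Alas2 and Slc4a1 had 0.61 TPM or less. The part of maturing red cells in these values was not tested. In bulk RNA, fewer cells of a type and less RNA per cell cannot be told apart.

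The nucleolus is where RNA polymerase I transcribes the ribosomal RNA precursor and where most of ribosome assembly takes place. Box C/D small nucleolar RNAs (snoRNAs), bound by fibrillarin, NOP56 and NOP58, guide methylation of the precursor, while separate sets of factors fold, cut and chaperone the small and the large subunit. The last steps take place in the cytoplasm, and growing progenitors of the blood are known to make ribosomes at a high rate.

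The members had higher RNA levels than most protein-coding genes. All 35 reached at least 1 TPM in both libraries, as did 42.5% of nuclear protein-coding genes, and 33 reached at least 5 TPM, against 24.7%. The 2 members under 5 TPM were Rrp12 and Nip7. The median member stood at 15.2 TPM in replicate 1 and 16.9 TPM in replicate 2, which is 16.1 ± 1.24 (SD, n = 2). The median over all nuclear protein-coding genes was 0.29 and 0.35 TPM, and over those with at least 1 TPM in both libraries it was 6.71 and 7.77 TPM. The members lay between rank 16 and rank 5910 of the 21461 nuclear protein-coding genes in replicate 1, and between rank 20 and rank 6547 in replicate 2, with 10 of them in the first 1000 in both. Together they held 1.13% of the TPM of nuclear protein-coding genes in replicate 1 and 1.09% in replicate 2.

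**Figure D1:**
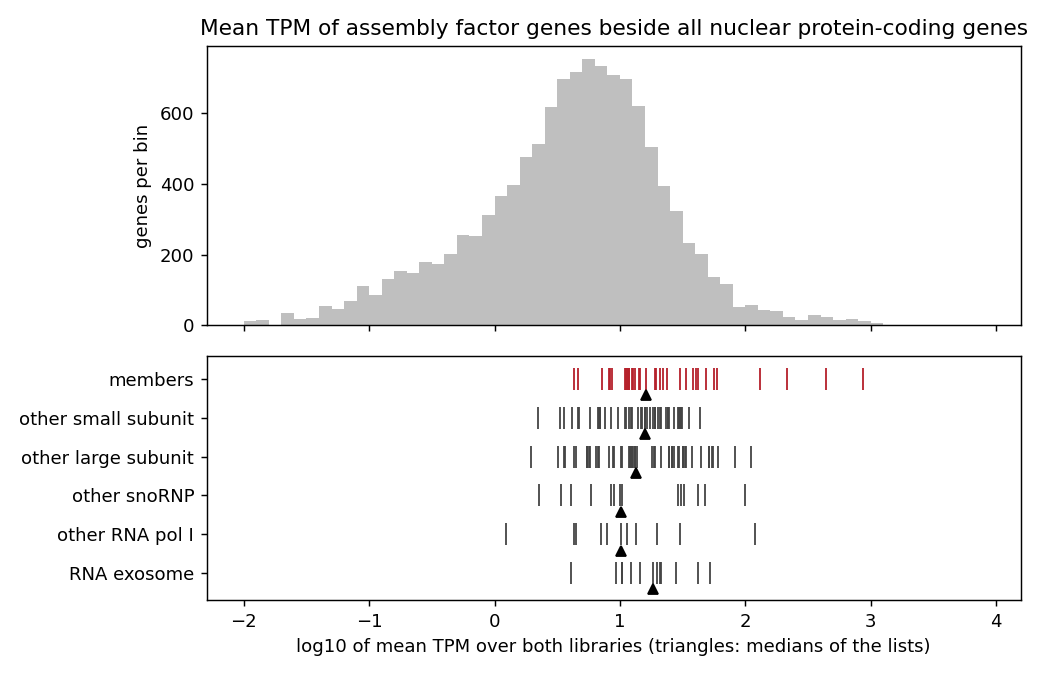
Mean TPM over both libraries on a log10 axis, as a histogram of nuclear protein-coding genes (grey; genes at 0 TPM in either library are not drawn) and as 1 line per gene for the 35 members (red) and 5 lists of other ribosome assembly genes (black), with a triangle at the median of each list. The members spread from 4.27 to 875 TPM around a median gene in the upper part of the histogram.

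A few genes held most of this. Npm1, Nop58, Ncl and Nop56 made up 73.8% of the members' summed TPM in replicate 1 and 70.1% in replicate 2, and Npm1 by itself 40.8% and 35.3%. The other 31 members lay between 4.27 and 59.3 TPM on average. These shares depend on effective length. By counts scaled to library size (CPM), Ddx21 had 701 in replicate 1 and 646 in replicate 2. That was above Nop58, with 558 and 597 CPM, and Nop56, with 398 and 353 CPM. By TPM the order of the members was alike in both libraries, with Spearman's rho of 0.947 across the 35 genes. These genes are not independent replicates and share the same gene models. Some neighbours in that order lay closer than their spread, such as Rrn3 at 11.8 ± 1.3, Polr1b at 11.7 ± 2.23 and Rrp1b at 11.6 ± 2.18 TPM (SD, n = 2). On average others did not: Ddx21 at 59.3 ± 2.89 TPM was above Gnl3 at 55.9 ± 0.417 TPM in both libraries. In replicate 1, however, Ddx21 and Gnl3 were close, at 57.2 and 55.6 TPM.

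**Figure D2:**
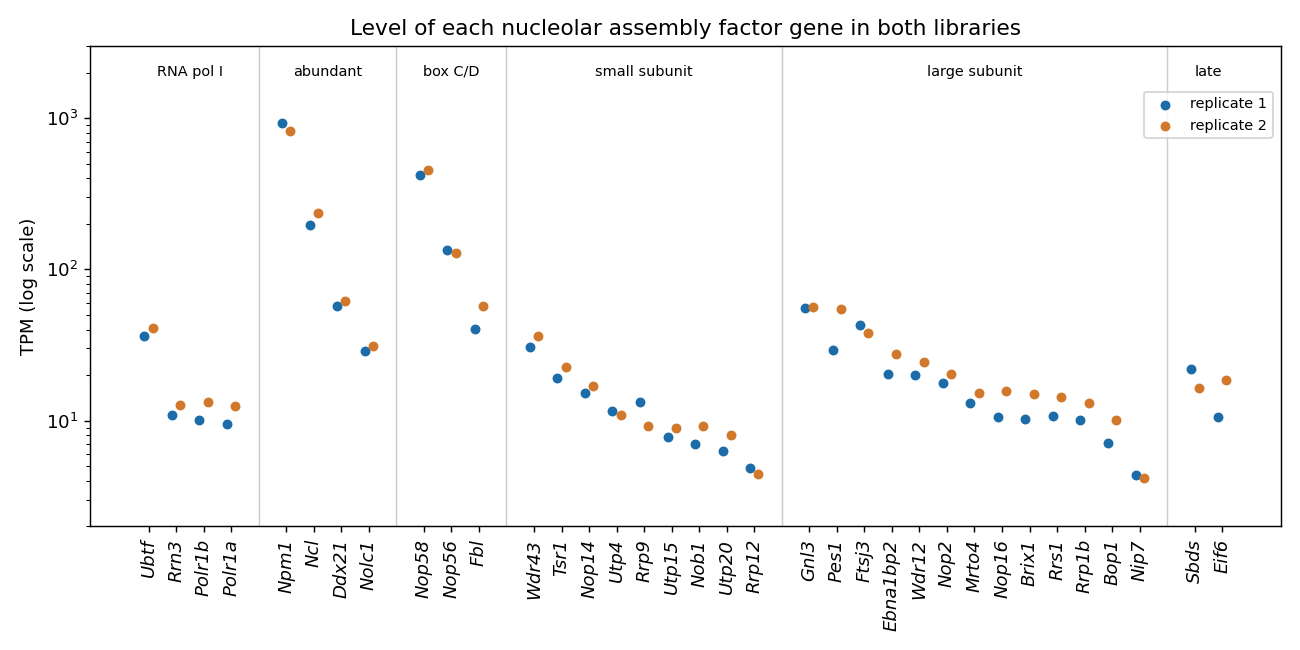
TPM (log axis) of each of the 35 members in replicate 1 (blue, left of each pair) and replicate 2 (orange), grouped by role and ordered by mean level within a role. Npm1 (923 and 827 TPM) and Nop58 (419 and 454 TPM) stand at the top, and the pairs lie farthest apart for Pes1 (29.2 and 54.7 TPM) and Eif6 (10.6 and 18.5 TPM).

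RNA polymerase I and its factors had moderate levels. Polr1a, which encodes the largest subunit of the enzyme (chr6:71909053-71984935, plus strand; GENCODE M21 on GRCm38, as all gene coordinates here), had 9.55 TPM in replicate 1 and 12.5 TPM in replicate 2. Polr1b, the subunit that completes the active centre with it, had 10.1 and 13.3 TPM. By gene TPM the higher of this pair was 1.06 times the lower in replicate 1 and 1.07 times in replicate 2. That was less than either gene differed between the libraries by TPM. By counts scaled to library size (CPM) the genes differed less and in opposite directions. Their ratios of replicate 1 over replicate 2 were 0.889 for Polr1a and 1.08 for Polr1b. The smaller gap within the pair did not hold by the coding model with most counts. There the ratio of the pair was 1.06 and 1.18, while the Polr1b model, Polr1b-202, was close in both libraries at 10.1 and 10.6 TPM. Rrn3, the factor that links the polymerase to the promoter, lay beside Polr1a and Polr1b at 10.9 and 12.8 TPM. Ubtf (chr11:102304560-102319742, minus strand), which encodes the upstream binding factor that keeps ribosomal RNA genes open, was higher than these 3 in both libraries, at 36.2 and 40.9 TPM.

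Ubtf makes 2 main proteins, a longer one that is active on ribosomal RNA genes and a shorter one that lacks part of a DNA-binding box. The 4 transcript models whose coding sequence has 764 codons summed to 16.6 TPM in replicate 1 and 18.2 TPM in replicate 2, and held 53.6% and 53.9% of the counts of coding models. The 4 models with 727 codons summed to 10.3 and 13.2 TPM and held 46.1% and 43.7%. The shares by coding length were thus alike in both libraries, whereas single models were not: Ubtf-202 had 9.49 and 0.97 TPM, and Ubtf-203 had 0 and 9.14 TPM. Models that share nearly all of their sequence split reads in the authors' estimate, so the value of a single Ubtf model is uncertain.

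Of the promoters, 28 of 35 were found in RefSeq on GRCm38.p6, each from 250 bases before to 50 bases after a gene's start. The letters CACGTG, which read the same on both strands and are the E-box bound by Myc and Max, occurred in 7 of the 28 (25%), those of Nop2, Pes1, Rrn3, Tsr1, Utp20, Utp4 and Wdr43. They occurred in 14.7% of promoters of other ribosome assembly genes (17 of 116), in 13.2% of those of nuclear protein-coding genes with at least 5 TPM in both libraries (560 of 4245) and in 9.84% of those of cytoplasmic ribosomal protein genes (6 of 61). This is a count of letters, with no test and no measure of binding. Myc, the transcription factor gene, had 17.8 TPM in replicate 1 and 24.0 TPM in replicate 2. The 250 bases before the RefSeq start of Rrn3 (chr16:13780449-13780698, plus strand) and of Nop2 (chr6:125131633-125131882, plus strand) are shown because these 2 members hold the letters upstream of it. The first letter is at -215 and -48 in Rrn3 and at -60 in Nop2, where 0 is the first base of the gene in RefSeq. The GENCODE M21 start lies further downstream, at 13780708 for Rrn3 and 125131909 for Nop2. The letters are printed with CACGTG in capitals and the sequences credited to RefSeq.
Rrn3: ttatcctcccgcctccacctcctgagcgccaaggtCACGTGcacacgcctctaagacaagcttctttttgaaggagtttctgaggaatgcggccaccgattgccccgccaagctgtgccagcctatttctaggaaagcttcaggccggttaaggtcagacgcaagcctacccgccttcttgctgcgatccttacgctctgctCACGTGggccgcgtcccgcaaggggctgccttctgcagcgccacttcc
Nop2: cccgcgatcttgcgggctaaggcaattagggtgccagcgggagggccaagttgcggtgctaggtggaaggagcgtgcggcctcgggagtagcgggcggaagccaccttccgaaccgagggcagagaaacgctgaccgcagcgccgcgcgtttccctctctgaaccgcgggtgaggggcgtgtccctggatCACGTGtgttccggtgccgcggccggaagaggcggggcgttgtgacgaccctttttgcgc
The levels of the 7 genes with these letters ran from 7.15 TPM for Utp20 to 41.9 TPM for Pes1 on average, within the range of the members without them.

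Among the abundant nucleolar proteins was the highest member. Npm1 (chr11:33152287-33163206, minus strand) encodes nucleophosmin, a chaperone of the granular part of the nucleolus whose human gene is often mutated in acute myeloid leukaemia. It had 923 TPM in replicate 1 and 827 TPM in replicate 2, which ranks it 16th and 20th among nuclear protein-coding genes. Its expected counts were not whole, so part of its reads was shared with other entries and its level is uncertain to that extent. Of the counts of coding Npm1 models, Npm1-201 with 292 codons held 55.4% in replicate 1 and 57.4% in replicate 2, Npm1-204 with 257 codons held 33.8% and 28.6%, and Npm1-203 with 285 codons held 10.8% and 13.9%. The longest form thus led by counts in both libraries. Of the TPM of coding models, Npm1-201 held 43.7% in replicate 1 and 45.4% in replicate 2, against 40.1% and 33.9% for Npm1-204. The level of Npm1-204 was 365 TPM in replicate 1 and 274 TPM in replicate 2.

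Ncl (chr1:86344719-86359400, minus strand) encodes nucleolin, an RNA-binding protein of the nucleolus. It had 195 TPM in replicate 1 and 234 TPM in replicate 2. Most of this was assigned to a model that codes for no protein: the retained intron model Ncl-202, with a length of 3072 nt, held 72.7% of the gene's TPM in replicate 1 and 70.8% in replicate 2, and 58.6% and 55.8% of its counts. The leading coding model, Ncl-201, had 34.8 and 45.6 TPM and held 40.2% and 42.8% of the counts. It is 8202 nt long with a coding sequence of 2121 nt, so a read on it adds less TPM than a read on Ncl-202. How reads were split between these models was not tested, so the shares are no measure of intron retention. In total RNA, which holds unspliced RNA as well, reads from an unfinished transcript and from a stable retained intron cannot be told apart. Ddx21, an RNA helicase of the nucleolus, had 57.2 and 61.3 TPM. Nolc1, which escorts small nucleolar ribonucleoproteins (snoRNPs) between nucleolus and Cajal bodies, had 28.7 and 31.3 TPM.

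The box C/D core genes were unequal, and by how much depended on which transcript models were counted. Nop58 (chr1:59684971-59719044, plus strand) had 419 TPM in replicate 1 and 454 TPM in replicate 2, Nop56 (chr2:130274430-130279313, plus strand) had 135 and 129 TPM, and Fbl (chr7:28169710-28179269, plus strand), which encodes the methyltransferase fibrillarin, had 40.2 and 57.6 TPM. The highest of the 3 was 10.4 times the lowest in replicate 1 and 7.88 times in replicate 2. Summed over their coding models, Nop58 had 244 and 240.5 TPM, Nop56 had 70.5 and 76.0 TPM and Fbl had 40.2 and 57.6 TPM, so that the highest was 6.07 and 4.18 times the lowest. The coding models with most counts were Nop58-201 with 41.1 and 47.7 TPM, Nop56-202 with 41.6 and 43.8 TPM, and the Fbl model with the gene's full 40.2 and 57.6 TPM. Across these 3 models the highest was 1.03 times the lowest in replicate 1 and 1.32 times in replicate 2. The coding model of Nop58 with most TPM was another, Nop58-206, with 97.8 and 100.9 TPM, and with it the ratio was 2.43 and 2.30. These steps by coding model were chosen after the gene levels were seen.

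Most of the TPM of Nop58 lay in short models. Nop58-205, a model of 373 nt marked for nonsense-mediated decay, held 38.6% of the gene's TPM in replicate 1 and 43.5% in replicate 2 but 12.6% and 13.3% of its counts. The coding models Nop58-206 and Nop58-207, with lengths of 638 and 585 nt, held 23.4% and 23.2% of TPM in replicate 1 and 22.2% and 17.7% in replicate 2. Their annotated coding sequence spans the whole model and is shorter than the 1332 nt of Nop58-201, so they may be incomplete. The sum over coding models of Nop58 rests largely on them. TPM divides by effective length, which was 160.65 nt for Nop58-205 in replicate 1 against 1498.36 nt for Nop58-201, so a read on the short model adds more to the gene's TPM. Nop58-215, a coding model of 9507 nt with the longest coding sequence of the gene (1608 nt), had 3.60 and 7.06 TPM but held 16.2% and 25.6% of the counts. In Nop56, retained intron models held 35.9% of counts in replicate 1 and 35.2% in replicate 2. The expected counts of Nop56 and Fbl were not whole, so part of their reads was shared with other entries.

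**Figure D3:**
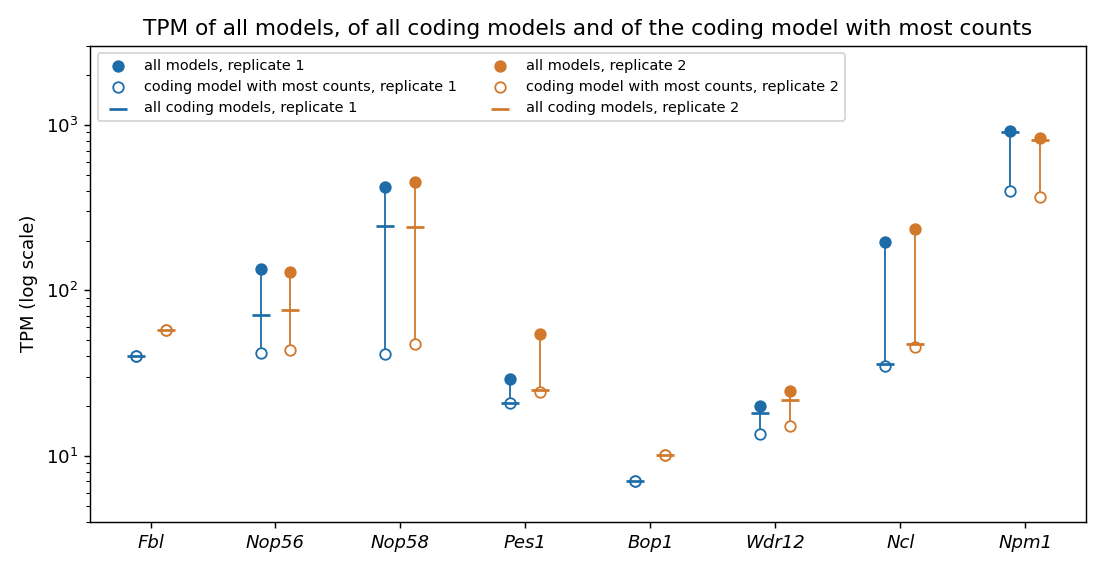
TPM (log axis) of all transcript models of a gene (filled), of all its coding models (dash) and of its coding model with most counts (open) for 8 members, with replicate 1 (blue) left of replicate 2 (orange). The open points of Fbl, Nop56 and Nop58 lie between 40.2 and 57.6 TPM, while the dashes of Nop58 are at 244 and 240.5 TPM and its filled points at 419 and 454 TPM.

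Some members carry snoRNA genes within their bounds on the same strand, and these were almost entirely without counts. The 6 hosts Gnl3, Ncl, Nop56, Nop58, Tsr1 and Wdr43 hold 20 snoRNA genes, of which 19 had 0 counts in both libraries. For 18 of the 20 the authors' effective length was 0 in both libraries, and these were at most 93 nt long. The shortest model of any gene with an effective length above 0 was 110 nt in replicate 1 and 105 nt in replicate 2. A count of 0 for the short snoRNAs is therefore no measurement of their level, and the same holds for 468 of 1484 annotated snoRNA genes (31.5%). The snoRNA gene with counts, Gm24451 in Nop56, is 133 nt long and had 204 counts in replicate 1 and 731 in replicate 2. Its TPM of 779.7 and 799.8 rests on an effective length of 3.43 and 4.69 nt and is uncertain. Snora75 in Ncl, of the same length, had 0 counts in both libraries.

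The snoRNA sequences of Nop58 and 1 of Nop56 are shown because the hosts encode the proteins that bind this class of RNA and the tables could not count these members of it. They are read from GRCm38 on the plus strand, and capitals mark the letters TGATGA of the C box within the first 20 bases and CTGA of the D box within the last 20. Snord70 lies at chr1:59691934-59692020, Gm26293 at chr1:59692509-59692592, Gm26287 at chr1:59704258-59704338 and Snord11 at chr1:59704790-59704873, all in Nop58, and Snord110 lies at chr2:130275506-130275573 in Nop56.
Snord70: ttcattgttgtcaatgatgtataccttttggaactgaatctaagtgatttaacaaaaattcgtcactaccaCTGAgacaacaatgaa
Gm26293: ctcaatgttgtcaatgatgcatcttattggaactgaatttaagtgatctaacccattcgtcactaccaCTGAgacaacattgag
Gm26287: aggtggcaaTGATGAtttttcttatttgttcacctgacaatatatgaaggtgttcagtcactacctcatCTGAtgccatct
Snord11: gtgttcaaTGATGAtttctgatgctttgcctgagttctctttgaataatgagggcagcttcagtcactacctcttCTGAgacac
Snord110: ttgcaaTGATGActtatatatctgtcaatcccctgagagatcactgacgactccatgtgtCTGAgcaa
Both sets of letters were found in 9 of the 20 hosted snoRNA genes. Snord70 and Gm26293 hold CTGA and not TGATGA in these windows.

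The small subunit factors ran from 4.46 to 36.2 TPM over both libraries. Wdr43, Utp4 and Utp15 encode parts of the complex that first binds the nascent precursor, and Wdr43 led the role with 30.9 TPM in replicate 1 and 36.2 TPM in replicate 2. Utp4 had 11.6 and 11.0 TPM and Utp15 had 7.79 and 8.92 TPM, so that the 3 partners were unequal in both libraries. Nop14, a protein of the same early particle, had 15.2 and 16.9 TPM, and Utp20, a very long helical repeat protein, had 6.27 and 8.03 TPM.

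Rrp9, a protein of the snoRNP that pairs with the precursor of the small subunit RNA, was the small subunit factor that differed most between the libraries, with 13.3 TPM in replicate 1 and 9.24 TPM in replicate 2. Tsr1, a late factor of the small subunit, had 19.1 and 22.6 TPM. Its exons share 1240 nt, or 32.3% of their bases, with the antisense gene Srr at 2.16 and 2.29 TPM. Whether counting used strand is not given in the sources used here, so reads in that stretch cannot be told apart. Annotated antisense exons covered at most 5.27% of the exon bases of the other 11 members that overlap any. Nob1, the nuclease that makes the final cut of the small subunit RNA, had 7.06 and 9.20 TPM, and Rrp12, a repeat protein of late nuclear steps, had 4.83 and 4.46 TPM.

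The large subunit factors were led by Gnl3 at 55.6 TPM in replicate 1 and 56.2 TPM in replicate 2, the gene of the GTPase nucleostemin. Ftsj3, which encodes a methyltransferase of large subunit RNA, had 42.6 and 38.2 TPM. Nop2, another RNA methyltransferase of this subunit, had 17.7 and 20.4 TPM. Ebna1bp2, a partner of early large subunit particles, had 20.4 and 27.4 TPM. Mrto4, which holds the place of a stalk protein until late in assembly, had 13.0 and 15.2 TPM. Its expected count was not whole in replicate 2. Rrs1, which helps bring in the 5S particle in yeast, had 10.8 and 14.4 TPM. Brix1 had 10.2 and 15.0 TPM and Nop16 had 10.6 and 15.7 TPM, both of them factors of early large subunit particles. Most of this role thus lay between 10 and 30 TPM in both libraries. Nip7, an RNA-binding factor of pre-ribosomes, was the lowest of all members in both, at 4.36 and 4.18 TPM.

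Pes1, Bop1 and Wdr12 encode the 3 proteins of 1 complex that is needed for the large subunit RNA. Pes1 had 29.2 TPM in replicate 1 and 54.7 TPM in replicate 2, Wdr12 had 20.0 and 24.5 TPM, and Bop1 had 7.08 and 10.1 TPM. Their order was the same in both libraries, and the highest was 4.12 times the lowest in replicate 1 and 5.44 times in replicate 2. Most of the difference in Pes1 lay in Pes1-203, a processed transcript of 497 nt with 8.27 and 29.6 TPM, which held 3.98% and 11.4% of the gene's counts. The coding model Pes1-201 had 20.7 and 24.4 TPM, and with the coding model of most counts in place of the gene the highest of the complex was 2.93 and 2.43 times the lowest.

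Rrp1b, which binds early large subunit particles, had 10.1 TPM in replicate 1 and 13.1 TPM in replicate 2. Its coding model Rrp1b-201 had 3.80 and 1.92 TPM, and the retained intron model Rrp1b-205 had 2.45 and 5.45 TPM. Among the 21 members with several models, the model that led by TPM changed between the libraries in 3, Rrp1b, Ubtf and Pes1, against 24.0% of 7347 genes with several models and at least 100 expected counts in each library. The leading model was not a coding one in both libraries in 2 of the 21, Ncl and Nop58, against 7.91% of those genes. By counts in place of TPM this held for Ncl alone, against 3.77%.

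Further members had a coding model that was close in both libraries and noncoding models that were not. Ebna1bp2-201, the coding model of its gene, had 14.4 TPM in replicate 1 and 13.5 TPM in replicate 2, while the processed transcript Ebna1bp2-202, of 788 nt, had 4.13 and 12.1 TPM. Nob1-201, the coding model of the nuclease gene, had 6.80 and 6.08 TPM. Nob1-202, a processed transcript of 783 nt, had 0 counts in replicate 1 and 223.92 in replicate 2, or 0 and 1.98 TPM. The gene TPM of Ebna1bp2 and Nob1 was lower in replicate 1, while their coding models and their scaled counts were not, with CPM of 116 and 105 for Ebna1bp2 and of 27.5 and 27.4 for Nob1.

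The late cytoplasmic factors act on 1 step together: EIF6 keeps the large subunit from joining the small one until SBDS, whose human gene is mutated in a syndrome of marrow failure, helps to release it. Sbds (chr5:130245731-130255530, minus strand) had 21.9 TPM in replicate 1 and 16.5 TPM in replicate 2. Eif6 (chr2:155819832-155826925, minus strand) had 10.6 and 18.5 TPM. Sbds was thus the higher of the pair in replicate 1 and the lower in replicate 2 by gene TPM. By the coding model with most counts Sbds was the higher in both, with 16.9 and 13.1 TPM for Sbds-201. The coding model Eif6-201 was close in both libraries, at 8.48 and 7.76 TPM, and the short processed transcript Eif6-205, of 402 nt, had 4.85 counts in replicate 1 and 250.01 in replicate 2, or 0.34 and 6.39 TPM.

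The libraries were also compared by counts scaled to library size with TMM factors (CPM), which do not depend on effective length. None of the 35 members differed 2-fold, against 7.66% of 11185 nuclear protein-coding genes whose mean expected count reached 50. Because the members are deep, with at least 776 counts each, the closer background is the 5783 genes at least as deep as the shallowest member, of which 0.19% differed 2-fold. No replicated test of this count exists, so there is no p-value. Sbds was the only member past 1.5-fold, with 70.3 CPM in replicate 1 and 46.4 CPM in replicate 2, a ratio of 1.52, against 17.6% of the tested genes and 3.25% of the deep ones. Rrp9 came next on that side with 42.1 and 29.7 CPM, a ratio of 1.42, and Brix1 lay farthest on the other side with 66.5 and 85.6 CPM, a ratio of 0.777.

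The median log2 CPM ratio of the members was 0.01 and that of the tested genes was -0.01. By CPM 19 members were higher and 16 lower in replicate 1, and 51.8% of the tested genes were lower. By TPM 8 were higher and 27 lower in replicate 1. On the TPM scale the median of all tested genes was shifted as well, to -0.22 on the log2 scale, and the members' median was also -0.22, so the direction of the middle members turns with the scale and no direction is drawn from it. Past 1.5-fold by TPM were Pes1 and Eif6, against 13.1% of the deep genes. Their CPM ratios were 0.890 and 1.07, and their effective lengths were 2012.17 and 1178.81 nt in replicate 1  and 1404.05 and 735.74 nt in replicate 2. The labels give a size range of 200 to 1000 in replicate 1, against 187 to 1606 in replicate 2 (unit not stated), and their part in these values was not tested.

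**Figure D4:**
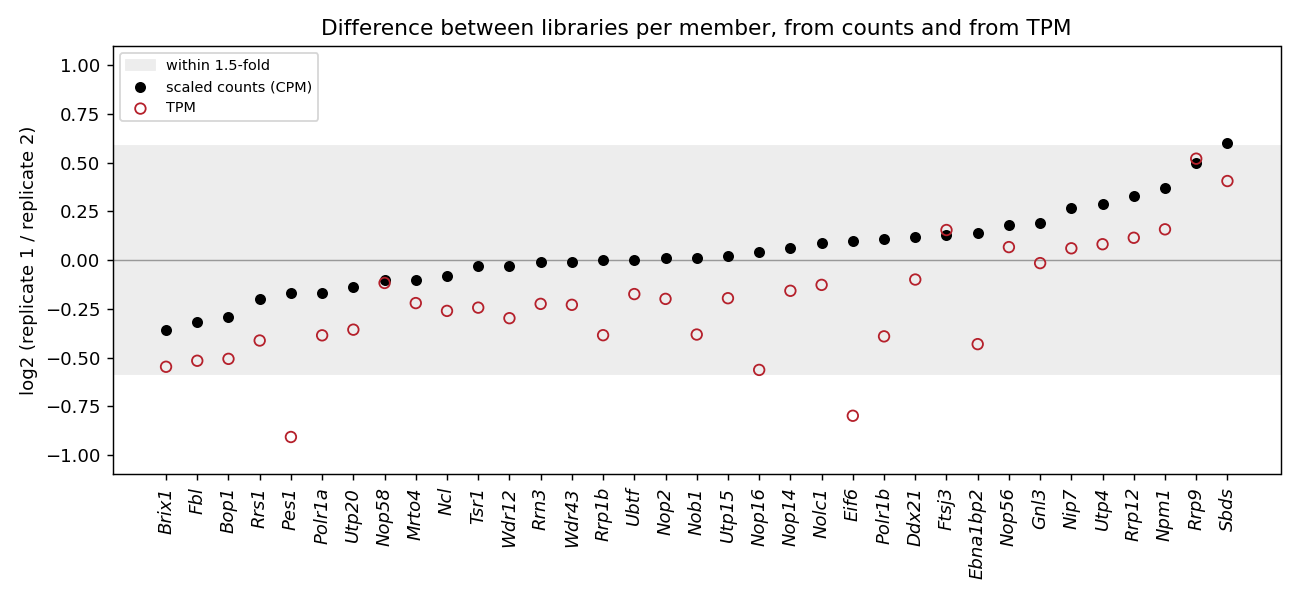
Log2 ratio of replicate 1 over replicate 2 for each of the 35 members, from TMM-scaled counts (black) and from TPM (open red), ordered by the ratio from counts, with the range within 1.5-fold shaded. By counts the members lie between -0.36 and 0.60, with Sbds alone outside the shaded range, and by TPM Pes1 and Eif6 lie below it.

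The authors' interval bounds of TPM, whose level is not stated, did not overlap between the libraries for 31 of the 35 members, against 65.3% of the tested genes and 73.0% of the deep ones. With the authors' FPKM bounds the members' count was 24, against 59.7% of the tested genes and 65.0% of the deep ones, and with TPM rescaled over nuclear protein-coding genes it was 28, against 61.3% of the tested genes. The 4 members with overlapping TPM bounds were Utp4, Rrp12, Gnl3 and Nip7. Npm1, for example, had bounds of 899 to 916 TPM in replicate 1 and 815 to 825 TPM in replicate 2, with its own TPM of 923 above the bounds of replicate 1. For 3 members a TPM lay outside its own bounds. The bounds describe the estimate within 1 library and not the spread between libraries. The expected counts were whole within 0.005 in both libraries for 30 members. They were not for Npm1, Nop56, Fbl, Wdr12 and Mrto4, whose levels are uncertain because reads were shared with other entries. The authors' posterior SD of a member's count, which describes the estimate within 1 library, was at most 0.392% of that count.

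Other genes of the same pathway lay at like levels. Of 135 further assembly genes 133 were matched, and 132 of these (99.2%) reached 1 TPM in both libraries and 113 (85.0%) reached 5 TPM. Their median was 14.2 TPM in replicate 1 and 14.8 TPM in replicate 2, near the 15.2 and 16.9 TPM of the members. By list, the medians were 9.45 and 11.0 TPM for 11 other RNA polymerase I genes, 8.79 and 12.7 TPM for 14 snoRNP genes, 14.8 and 15.9 TPM for 45 small subunit genes, 13.4 and 14.7 TPM for 50 large subunit genes and 16.8 and 19.6 TPM for 13 exosome genes. None of the 133 differed 2-fold by CPM, and their median log2 CPM ratio was 0.03.

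Single genes of these lists stood at both ends. Taf1d, a subunit of the factor that recruits RNA polymerase I to its promoter, was the highest RNA polymerase I gene at 119 ± 9.28 TPM, and Taf1c, a subunit of the same factor, was the lowest with 0.75 TPM in replicate 1 and 1.74 TPM in replicate 2. Dkc1, the pseudouridine synthase dyskerin of box H/ACA snoRNPs, stood at 100.0 ± 11.5 TPM and Snu13, the protein that binds box C/D snoRNAs first, at 48.1 ± 0.955 TPM. Pa2g4, a factor bound to maturing large subunits, stood at 110.0 ± 37.2 TPM. Exosc8, a ring subunit of the RNA exosome that trims the precursors, stood at 52.2 TPM and Exosc4, another ring subunit, at 4.11 TPM on average.

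The 82 cytoplasmic ribosomal protein genes, whose products the members assemble, stood far higher than the members, with a median of 491 TPM in replicate 1 and 436 TPM in replicate 2. They held 22.1% and 19.8% of the TPM of nuclear protein-coding genes. By CPM 65 of the 79 that could be compared were higher in replicate 1, with a median log2 ratio of 0.18. Of the members 19 of 35 were higher, and of all tested genes 5390 of 11185, with a median log2 ratio of -0.01. Among the members Npm1 exceeded their median TPM in both libraries and Nop58 in replicate 2 alone. Summed over its coding models Nop58 had 240.5 TPM in replicate 2, which is below that median.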

How the data were processed

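Total RNA was measured in 2 libraries of 1 group. For each library the authors deposited 1 table of genes and 1 of transcripts, built on mm10 and GENCODE M4 as its readme states. Which aligner and which quantifier were used is not given in the sources used here. The expected counts deposited by the authors are estimated reads, per the file headers. TPM, posterior mean TPM and FPKM were computed by the authors from effective lengths, per the file headers. The TPM and FPKM bounds, a signal scale here, were deposited by the authors with no interval level. The percent values deposited by the authors for each transcript were left aside, and shares were computed from transcript TPM and counts.

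GENCODE M21 on GRCm38, the assembly of mm10, gave names, classes and coordinates, matched by Ensembl identifier for 42462 of 43346 genes. Members, roles, lists, tests and the rule for named genes were chosen with earlier results of these data known. The rule lets the text name each member, each marker, Myc and, of each other list, the genes with the 3 highest and the 3 lowest levels. The genes Riok2 and Exosc6 were not analysed here. Ranks and backgrounds used 21461 nuclear protein-coding genes. TMM factors (edgeR 4.0.16, R 4.3.3) were estimated from expected counts rounded to whole numbers. CPM and ratios were computed from the expected counts without rounding. DESeq2 1.42.0 gave the alternative scaling. Ratios used a prior count of 0.5 and genes whose expected count averaged at least 50. Entries with a numeric identifier, with 0 counts in replicate 1 and 83 in replicate 2, stayed out of library sizes. Where a library has 0 counts, up to 3 remain possible, or 0.107 CPM in replicate 1 and 0.0357 CPM in replicate 2, for counting error only. The ratio step was run on simulated data with a large planted change, which checks the calculation and bears on no result here. Python 3.11.15, pandas 2.3.3, numpy 2.4.6 and matplotlib 3.10.9 served for the rest.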

Additional observations from a re-analysis of the deposited data

How the results depend on the processing

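No paired analysis was possible because there was 1 group. The members' median of 16.1 TPM became 40.2 as FPKM (all nuclear protein-coding genes 0.795) and 77.1 as TPM rescaled over nuclear protein-coding genes alone (1.53), and lay between 15.2 and 16.9 without either library. All 35 members stayed at 1 TPM with either library left out. The median log2 ratio of 0.01 became -0.22 from deposited TPM (all tested genes -0.22) and -0.13 from rescaled TPM (-0.12). The count past 2-fold of 0 became 1 at 1.5-fold, and the 2 members led by a noncoding model became 1 by counts. The highest over the lowest gene averaged 4.78 for Pes1, Bop1 and Wdr12, 9.14 for the box C/D core and 1.06 for the polymerase pair. Alternatives by coding model were chosen after seeing the data. The model with most counts gave 2.68, 1.18 and 1.12, the model with most TPM gave 2.68, 2.37 and 1.12, and the sum over coding models gave 2.73, 5.12 and 1.12. Posterior mean TPM gave 1.08 for the pair. Without either library they ran from 4.12 to 5.44, from 7.88 to 10.4 and from 1.06 to 1.07. Leaving out a library gives no ratio or comparison of bounds. With n = 2, every mean rests on 1 pair of values.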
